A study of Mus musculus with 12 samples.

Results

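The subject is a set of 9 mouse genes that write, maintain and remove DNA methylation, read in a single table of expression values of 26219 genes in 12 libraries. The rows named Dnmt1, Dnmt3a, Dnmt3b, Dnmt3l, Uhrf1, Tet1, Tet2, Tet3 and Tdg were taken, and each of the 9 names had a row. GSCLCs, or germline stem cell-like cells, are lines expanded from reconstituted testes kept in culture, which the series title traces to mouse pluripotent stem cells. Of the 4 GSCLC lines, GSCLC_2 and GSCLC_3 came from testes under condition 2, which was 37°C for 2 weeks followed by 34°C for 1 week, and GSCLC_1 and GSCLC_4 from condition 1, which was 34°C for 3 weeks. The 2 GSC lines, GSC_1 and GSC_2, are germline stem cells, the cultured form of spermatogonial stem cells, and were derived from different testes of postnatal day 7. All 6 lines carry the AcrAct_EGFP reporter on a C57BL/6 x 129/SvJcl background and were expanded in the same StemPro-34 medium with GDNF, bFGF, LIF and EGF. Each line gave 2 replicate cultures, and each library was made by SC3-seq, which amplifies cDNA and reads only the 3′ ends of transcripts, from 1 ng of total RNA of the bulk culture. The kind of line and its source, a reconstituted or a postnatal testis, cannot be told apart.

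DNA methylation is the addition of a methyl group to cytosine, in mammals mostly where a cytosine is followed by a guanine. Dnmt3a and Dnmt3b place it on unmethylated DNA, Dnmt3l has no catalytic activity of its own and stimulates both, and Dnmt1 copies it onto the new strand after replication, brought there by Uhrf1, which binds hemimethylated sites. Tet1, Tet2 and Tet3 oxidise methylcytosine, and Tdg cuts out the more oxidised forms so that base excision repair can restore an unmodified cytosine. In the mouse male germ line, methylation is erased in primordial germ cells and laid down again in prospermatogonia before birth, when Dnmt3a and Dnmt3l are needed, and spermatogonia then keep the pattern through their divisions.

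Values are RPM, the reads of a gene scaled to a fixed total per library. From the smallest step between values, depth was 3031705 to 4644184 reads, at which a floor of 3 reads stands at 0.646 to 0.99 RPM. Germ cell markers summed to 2900 to 3460 RPM in GSCLC libraries and 2980 to 3370 RPM in GSC libraries, and the 6 markers of pluripotent cells to 86.9 to 121 RPM and 102 to 121 RPM. Of these, Dppa5a averaged 65 RPM in GSCLC lines and 80.2 RPM in GSC lines, Zfp42 24.1 and 23.2 RPM in GSCLC and GSC lines, and the highest Nanog value was 0.326 RPM. Intervals and floors cover counting error only, because amplified reads are not independent molecules. Group means are over lines (GSCLC n = 4, GSC n = 2) with their SD. Log2 differences are of log2(RPM + 1), which understates the change of low genes, and come from limma with Benjamini-Hochberg adjustment over the 11788 genes that had at least 5 RPM in at least 2 libraries.

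Maintenance genes were the most abundant of the set in all 12 libraries, the de novo enzymes stood lower, and Tdg and Tet3 lower again. Dnmt3l, Tet1 and Tet2 were near the floor and did not pass the filter, so 6 of the 9 members were tested. Between GSCLC and GSC lines 0 of these 6 were past the threshold of 0.05, where 3.02% of all tested genes were. Uhrf1 was below Dnmt1 in 12 of 12 libraries, and Tdg below both Dnmt3a and Dnmt3b in 12 of 12. Dnmt3a was above Dnmt3b in 7 libraries and below it in 5, so these neighbours in the order did not separate, and Tet3 was below Tdg in 11 of 12. Averaged over the libraries, Dnmt1 stood above 98% of the genes in the table, Uhrf1 above 96.7%, Dnmt3a above 85.4% and Dnmt3b above 84.5%. Tdg stood above 74.1%, Tet3 above 66.9%, Dnmt3l above 51.3%, Tet1 above 45.7% and Tet2 above 40.5%. RPM from 3′ ends is not scaled by transcript length, and the order is one of 3′ reads, since ends can differ in how well they are captured and mapped.

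**Figure D1:**
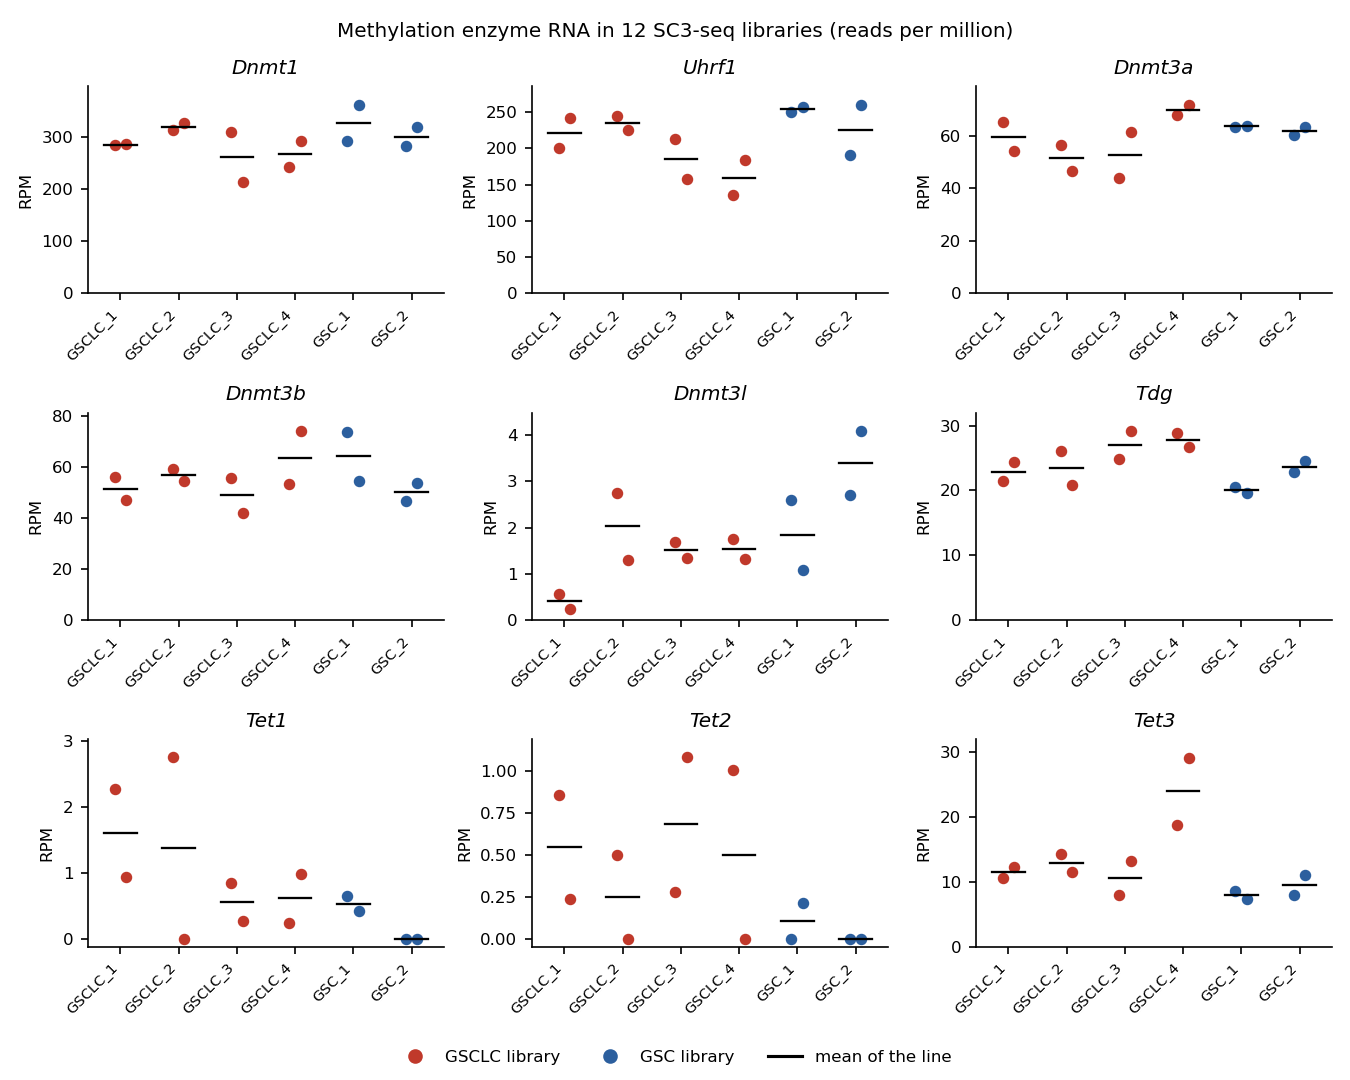
RPM of the 9 members in each library, in separate panels with their own linear axes; each point is a library, red for GSCLC and blue for GSC lines, and each bar is the mean of a line's 2 libraries. Tet3 stands apart in GSCLC_4 at 18.8 and 29.0 RPM, whereas Dnmt1, Dnmt3a and Dnmt3b of GSCLC and GSC lines overlap.

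Dnmt1, the maintenance methyltransferase (identifier 13433, chr9:20907209-20959888 on GRCm38, minus strand), had 284 and 287 RPM in GSCLC_1, 313 and 327 RPM in GSCLC_2, 309 and 214 RPM in GSCLC_3 and 242 and 292 RPM in GSCLC_4, against 293 and 362 RPM in GSC_1 and 282 and 320 RPM in GSC_2. The libraries of the groups overlapped, and the lowest value was replicate 2 of GSCLC_3. Dnmt1 averaged 283 ± 26.6 RPM in GSCLC lines and 314 ± 18.7 RPM in GSC lines (SD, n = 4 and 2), a log2 difference of -0.15 ± 0.12 (SE; 95% interval -0.42 to 0.11) with adjusted p = 0.566 by limma.

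Uhrf1, the reader of hemimethylated DNA that recruits Dnmt1 (18140, chr17:56303321-56323486, plus strand), had 200 and 242 RPM in GSCLC_1, 244 and 225 RPM in GSCLC_2, 213 and 157 RPM in GSCLC_3 and 135 and 184 RPM in GSCLC_4, against 250 and 258 RPM in GSC_1 and 190 and 260 RPM in GSC_2. Both libraries of GSCLC_4 and replicate 2 of GSCLC_3 were below every GSC library, and the other GSCLC libraries lay within the GSC range. Uhrf1 averaged 200 ± 34.1 RPM in GSCLC lines and 239 ± 20.2 RPM in GSC lines (SD, n = 4 and 2), and the log2 difference of -0.27 ± 0.16 (95% interval -0.62 to 0.08) had adjusted p = 0.419 by limma. The RPM ratio of Uhrf1 to Dnmt1 was 0.559 and 0.632 in GSCLC_4 and between 0.674 and 0.853 in the other 10 libraries. The last 300 bases of a Uhrf1 transcript share a run of 50 bases with the processed pseudogene Gm15953, so the level of Uhrf1 is uncertain to that extent.

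The sequence before the second annotated Uhrf1 start is shown because Uhrf1 was called lower in GSCLC_4 against the GSC mean, as given below. It did not pass the test among the lines. The 250-base windows of Uhrf1 and Dnmt1 were also the ones among the members that held TTTNNCGC. This is a form of the motif bound by E2F factors, which act at the entry into S phase. Windows and starts are those of RefSeq on GRCm38.p6, and all 9 members matched. TTTNNCGC was searched on both strands and occurs in 4.28% of 32851 promoters. It was found at both Uhrf1 starts and at the third Dnmt1 start, where 2 matches overlap each other in a window that also holds part of an annotated Dnmt1 exon. The Uhrf1 window below, chr17:56304063-56304312 on the plus strand, overlaps no annotated exon, and the capitals mark the match, which begins 185 bases before the start. The CCAAT box, searched on both strands, occurs in 33.8% of promoters and 2 times in this window. The GC box core, GGGCGG, occurs in 32.7% of promoters and 3 times here, again over both strands.
Uhrf1: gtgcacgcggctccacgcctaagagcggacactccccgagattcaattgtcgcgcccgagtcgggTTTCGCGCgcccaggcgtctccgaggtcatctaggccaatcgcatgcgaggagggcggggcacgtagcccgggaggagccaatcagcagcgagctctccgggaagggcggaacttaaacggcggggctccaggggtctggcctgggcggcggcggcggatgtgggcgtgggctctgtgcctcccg

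Dnmt3a, a de novo methyltransferase (13435, chr12:3806007-3914443, plus strand), had 65.3 and 54.1 RPM in GSCLC_1, 56.4 and 46.7 RPM in GSCLC_2, 43.8 and 61.5 RPM in GSCLC_3 and 68.1 and 71.9 RPM in GSCLC_4, against 63.6 and 63.7 RPM in GSC_1 and 60.6 and 63.3 RPM in GSC_2. GSC libraries were close together and lay inside the wider range of GSCLC libraries, and GSCLC_4 and replicate 1 of GSCLC_1 were above all of them. Dnmt3a averaged 58.5 ± 8.5 RPM in GSCLC lines and 62.8 ± 1.23 RPM in GSC lines (SD, n = 4 and 2), with a log2 difference of -0.12 ± 0.16 (95% interval -0.47 to 0.24) and adjusted p = 0.759 by limma. Dnmt3a has a long and a short form from different starts, and 3′ reads do not separate them.

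Dnmt3b is the other de novo methyltransferase among the members (13436, chr2:153649450-153687730, plus strand). It had 55.9 and 47.0 RPM in GSCLC_1 and 59.2 and 54.5 RPM in GSCLC_2. GSCLC_3 had 55.7 and 42.0 RPM and GSCLC_4 53.1 and 73.9 RPM. The GSC lines had 73.7 and 54.5 RPM in GSC_1 and 46.8 and 53.6 RPM in GSC_2. Values of about the same height at the top of each group came from a single culture each, replicate 2 of GSCLC_4 and replicate 1 of GSC_1. Dnmt3b averaged 55.2 ± 6.47 RPM in GSCLC lines and 57.1 ± 9.83 RPM in GSC lines (SD, n = 4 and 2), with a log2 difference of -0.05 ± 0.17 (95% interval -0.41 to 0.32) and adjusted p = 0.923 by limma. The RPM ratio of Dnmt3a to Dnmt3b ran from 0.787 to 1.46 over the 12 libraries, both extremes being cultures of GSCLC_3. Dnmt1 had 1.99 to 3.23 times the RPM of Dnmt3a and Dnmt3b together.

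Dnmt3l, the cofactor of the de novo enzymes (54427, chr10:78041947-78063622, plus strand), had 0.571 and 0.236 RPM in GSCLC_1, 2.76 and 1.3 RPM in GSCLC_2, 1.70 and 1.35 RPM in GSCLC_3 and 1.75 and 1.32 RPM in GSCLC_4, against 2.61 and 1.08 RPM in GSC_1 and 2.71 and 4.08 RPM in GSC_2. These values stand for 1 to 16 reads a library, 41 in all in GSCLC lines and 40 in GSC lines, and the groups overlapped. The pooled ratio of GSCLC to GSC was 0.539, with a counting interval of 0.34 to 0.855 that leaves out the spread between lines. Over the line means, at 1.37 ± 0.688 RPM in GSCLC lines and 2.62 ± 1.1 RPM in GSC lines (SD, n = 4 and 2), a two-sided exact permutation test over lines, with 15 splits, gave p = 0.333, and the smallest p it allows is 0.0667.

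Of the oxidases, Tet3 (194388, chr6:83362373-83459084, minus strand) supplied most of the reads in every library. Tet3 had 10.6 and 12.3 RPM in GSCLC_1, 14.3 and 11.5 RPM in GSCLC_2, 7.92 and 13.2 RPM in GSCLC_3 and 18.8 and 29.0 RPM in GSCLC_4, against 8.47 and 7.32 RPM in GSC_1 and 7.88 and 11 RPM in GSC_2. The libraries of GSCLC_4 were the highest of the 12, and of the others only replicate 1 of GSCLC_3 and replicate 1 of GSCLC_1 were below the top GSC library. At 75 and 88 reads, the counting intervals of GSCLC_4 were 14.8 to 23.5 and 23.3 to 35.8 RPM (95%, exact Poisson).

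Over lines, Tet3 averaged 14.7 ± 6.22 RPM in GSCLC lines and 8.66 ± 1.08 RPM in GSC lines (SD, n = 4 and 2). The line means did not overlap, which was so for 28.6% of all tested genes, and the log2 difference of 0.62 ± 0.31 (95% interval -0.06 to 1.3) had adjusted p = 0.344 by limma. Without line GSCLC_4 it was 0.38. Tet3 was 77.1% to 100% of the summed reads of Tet1, Tet2 and Tet3 in GSCLC libraries and 91.9% to 100% in GSC libraries, from 32 to 91 and 28 to 43 such reads. The 95% Clopper-Pearson interval of the lowest share, in replicate 1 of GSCLC_1, was 62.7% to 88%.

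Tet1 (52463, chr10:62804570-62908996, minus strand) had 2.28 and 0.946 RPM in GSCLC_1, 2.76 and 0 RPM in GSCLC_2, 0.848 and 0.27 RPM in GSCLC_3 and 0.25 and 0.99 RPM in GSCLC_4, against 0.652 and 0.431 RPM in GSC_1 and 0 in both libraries of GSC_2. Replicate cultures of GSCLC_2 gave 11 and 0 reads, and the groups overlapped. A read was seen in 7 of 8 GSCLC libraries and 2 of 4 GSC libraries, 31 and 4 reads in all, for a pooled ratio of 4.08 with a counting interval of 1.44 to 15.9. The exact permutation test over lines, at 1.04 ± 0.533 and 0.271 ± 0.383 RPM in GSCLC and GSC lines (SD, n = 4 and 2), gave p = 0.2.

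Tet2 (214133, chr3:133463679-133545139, minus strand) had 0.856 and 0.236 RPM in GSCLC_1, 0.501 and 0 RPM in GSCLC_2, 0.283 and 1.08 RPM in GSCLC_3 and 1.00 and 0 RPM in GSCLC_4, against 0 and 0.215 RPM in GSC_1 and 0 in both libraries of GSC_2. Reads were seen in 6 of 8 GSCLC libraries and 1 of 4 GSC libraries, 15 and 1 in all, and no library had more than 4. The pooled ratio was 7.89 with a counting interval of 1.21 to 332. Line means of 0.495 ± 0.18 RPM in GSCLC lines and 0.0538 ± 0.0761 RPM in GSC lines (SD, n = 4 and 2) did not overlap, which gave p = 0.0667 in the exact permutation test, the smallest it allows. At the floor of 0.646 to 0.99 RPM, a difference in Tet2 was not resolved at this depth.

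The promoters of the low members differ in base composition, which is shown for Tet2, Dnmt3l and, as the most read of the oxidases, Tet3. Capitals mark each CG, the site of methylation. Over all promoters the median was 6 CG in 250 bases (quartiles 2 and 16). Tet2, chr3:133544391-133544640 on the minus strand, had 51, more than 99.9% of promoters, and Tet3, chr6:83441679-83441928 on the minus strand, had 17, more than 76.5%. Both windows belong to a RefSeq start inside the gene span given above, and starts farther upstream are not covered. Tet1, whose window is not printed, had 15, more than 72.7%. The window before the second Dnmt3l start, chr10:78049592-78049841 on the plus strand, had 4, more than 37.8%. The windows of Tet2 and Dnmt3l overlap no annotated exon, and that of Tet3 overlaps an exon of B230319C09Rik, a gene on the opposite strand.
Tet2: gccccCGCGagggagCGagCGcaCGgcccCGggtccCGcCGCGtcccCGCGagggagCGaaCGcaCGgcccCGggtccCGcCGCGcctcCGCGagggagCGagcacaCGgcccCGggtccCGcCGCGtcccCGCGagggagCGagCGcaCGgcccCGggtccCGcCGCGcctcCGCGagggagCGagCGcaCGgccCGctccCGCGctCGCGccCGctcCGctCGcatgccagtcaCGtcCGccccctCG
Tet3: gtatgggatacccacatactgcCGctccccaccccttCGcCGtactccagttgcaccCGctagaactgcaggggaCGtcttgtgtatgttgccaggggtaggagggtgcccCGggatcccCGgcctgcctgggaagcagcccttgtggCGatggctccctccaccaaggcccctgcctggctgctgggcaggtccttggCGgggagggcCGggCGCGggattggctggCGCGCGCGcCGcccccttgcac
Dnmt3l: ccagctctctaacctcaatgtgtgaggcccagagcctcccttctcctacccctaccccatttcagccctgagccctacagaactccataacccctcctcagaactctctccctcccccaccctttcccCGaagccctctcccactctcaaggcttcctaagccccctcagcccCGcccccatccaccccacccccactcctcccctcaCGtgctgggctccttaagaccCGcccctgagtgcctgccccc

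Tdg, the glycosylase (21665, chr10:82629828-82650799, plus strand), had 21.4 and 24.3 RPM in GSCLC_1, 26.1 and 20.9 RPM in GSCLC_2, 24.9 and 29.1 RPM in GSCLC_3 and 28.8 and 26.7 RPM in GSCLC_4, against 20.5 and 19.6 RPM in GSC_1 and 22.9 and 24.5 RPM in GSC_2. The groups overlapped, with both libraries of GSCLC_3 and GSCLC_4 above every GSC library. Tdg averaged 25.3 ± 2.46 RPM in GSCLC lines and 21.9 ± 2.57 RPM in GSC lines (SD, n = 4 and 2), with a log2 difference of 0.20 ± 0.19 (95% interval -0.22 to 0.61) and adjusted p = 0.647 by limma. Its end shares runs of 50 bases with AC122846.1 and the pseudogenes Gm5597, Gm9855 and Tdg-ps and overlaps Glt8d2 on the other strand, so its level is uncertain. Glt8d2 itself was listed at 0 to 1.98 RPM.

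The 6 lines were then compared one by one, with the spread between the replicate cultures of a line as the error, so the p-values speak for these lines and not for other lines of their kind. Tet3 differed among the 6 lines (limma F test, adjusted p = 0.0325), making 1 of 6 members called where 20% of all tested genes were. Uhrf1 stood at adjusted p = 0.0614 and the other 4 tested members at 0.34 to 0.558. Among the 4 GSCLC lines 0 of 6 members passed, against 9.14% of tested genes, with Tet3 at adjusted p = 0.0886 and Uhrf1 at 0.117. Without GSCLC_4 replicate 2 the call for Tet3 among 6 lines was lost (F test, adjusted p = 0.245). The same held without GSC_1 replicate 2 (0.0606) and without GSC_2 replicate 1 (0.0564). With no filter (0.116) and with no mean-variance trend (0.0563) this call was also lost.

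GSCLC_4 carried both calls against the mean of the GSC lines, 2 of 6 members where 16% of tested genes were called, 9.65% higher and 6.4% lower. Tet3 was higher in GSCLC_4 by 1.35 ± 0.29 on the log2 scale, a fold of 2.55 (95% interval 1.69 to 3.85), with adjusted p = 0.00322 by limma. Uhrf1 was lower by -0.59 ± 0.16, a fold of 0.666 (0.529 to 0.837), with adjusted p = 0.0158. Without GSCLC_4 replicate 2 the Tet3 difference was 1.05 with adjusted p = 0.0711. Without GSCLC_4 replicate 1 the Uhrf1 difference was -0.36 with adjusted p = 0.265, and without GSC_2 replicate 2 it was -0.48 with adjusted p = 0.0671.

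In the other GSCLC lines 0 of 6 members were called, with 6.94%, 11.7% and 14.3% of tested genes called in GSCLC_1, GSCLC_2 and GSCLC_3. The Tet3 difference was 0.37 in GSCLC_1, 0.53 in GSCLC_2 and 0.23 in GSCLC_3, each ± 0.29, and that of Uhrf1 was -0.11, -0.02 and -0.37, each ± 0.16. These contrasts share the GSC libraries. Between GSC_2 and GSC_1 0 of 6 members were called, with 0.0509% of tested genes, and the differences ran from -0.33 for Dnmt3b to 0.23 for Tdg.

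**Figure D2:**
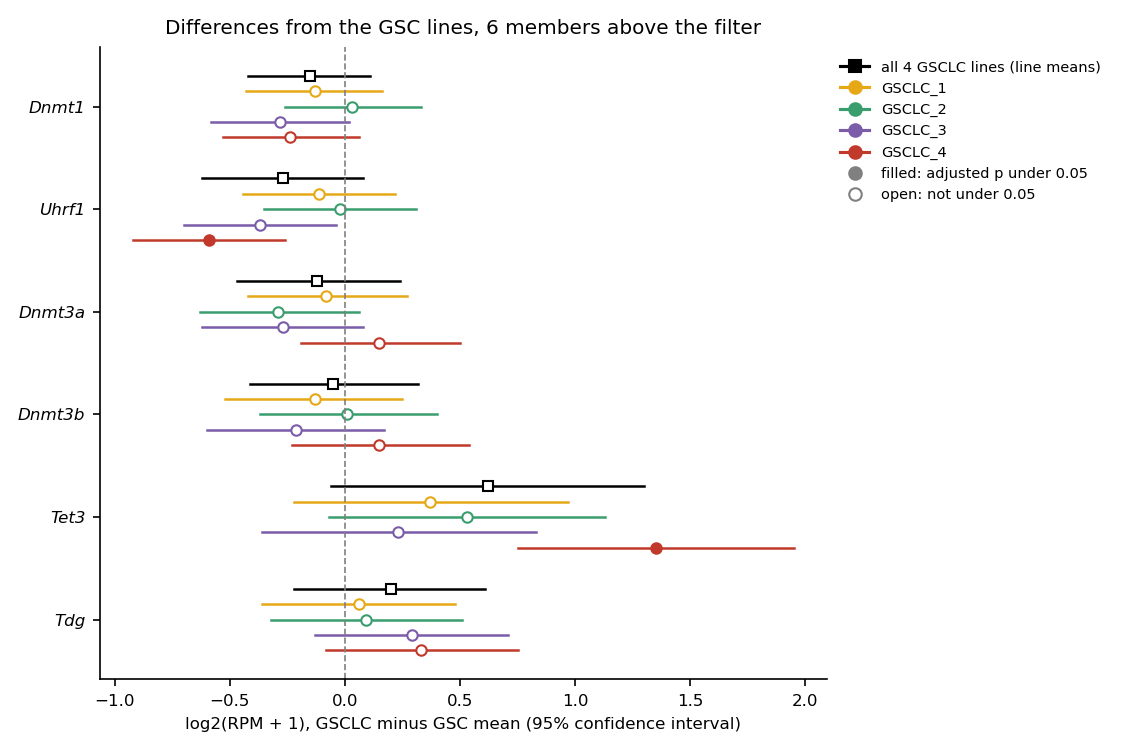
Log2(RPM + 1) differences from the GSC mean with 95% confidence intervals for the 6 tested members; black squares are the mean over the 4 GSCLC lines from the fit on line means, and coloured circles are single GSCLC lines from the fit on libraries. Filled circles pass the threshold, which is so for Uhrf1 at -0.59 and Tet3 at 1.35 in GSCLC_4.

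Markers of other cells were set beside these calls. Sertoli cell markers summed to 117 and 105 RPM in the GSCLC_4 libraries, 21.8 to 42.4 RPM in the other GSCLC libraries and 38.3 to 144 RPM in GSC libraries. In GSCLC_4 Rhox5, an X-linked homeobox gene, gave 69.4 and 68.3 RPM of the sum and in every other library at most 3.83 RPM. Wt1 had 10.8 and 17.2 RPM in GSCLC_4 and was highest in GSCLC_2, at 29.8 and 20.1 RPM. Clu went the other way and had the highest mean of the Sertoli markers in GSC lines. It averaged 14.2 ± 5.29 RPM in GSCLC lines and 62.7 ± 21.6 RPM in GSC lines (SD, n = 4 and 2; adjusted p = 0.0131 by limma). Its log2 difference in GSCLC_4 was -1.31 ± 0.49, so the sums of GSCLC_4 and GSC libraries rest on different genes. Amh, a defining product of immature Sertoli cells, was at 0 in all 12 libraries. Fibroblast markers summed to 396 and 571 RPM in GSCLC_4, 274 to 488 RPM in the other GSCLC libraries and 331 to 808 RPM in GSC libraries. The part of these in the Tet3 and Uhrf1 values was not tested. In bulk cultures fewer cells of a type and less RNA per cell cannot be told apart.

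Tet3 lies on chromosome 6, and genes around it were also higher in 2 of the lines. The 20 tested genes nearest to Tet3, over 0.848 Mb, had a median log2 difference from the GSC mean of 0.47 in GSCLC_4, 0.42 in GSCLC_2, -0.02 in GSCLC_1 and -0.16 in GSCLC_3. In GSCLC_4 Tet3 exceeded this median by 0.88, and 0 of the 20 neighbours had a difference as large as its own. Tet3 was described here because of its call in GSCLC_4, so its rank in that line is partly set by this choice. In GSCLC_2 it exceeded the median by 0.11, and 5 of the 20 were above it. In GSCLC_1 and GSCLC_3, where the neighbours stood near 0, Tet3 was 0.39 above the median in both.

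The higher level was also seen farther from Tet3, on one side of it. Over 216 tested genes more than 10 Mb beyond Tet3 the median difference was 0.56 in GSCLC_4, 0.46 in GSCLC_2, 0.02 in GSCLC_1 and -0.10 in GSCLC_3. Over 225 genes more than 10 Mb before it the medians were 0.17, 0.05, 0.04 and -0.10 in the same lines, and over 99 genes within 10 Mb they were 0.53, 0.47, -0.03 and -0.09. Mthfd2, a mitochondrial folate enzyme whose gene is among the neighbours of Tet3, had a difference of 0.81 in GSCLC_4 and 0.50 in GSCLC_2. The median over all tested genes was 0.06 in GSCLC_4 and 0 in GSCLC_2. For Uhrf1 the 20 nearest genes on chromosome 17 had a median of 0.15 in GSCLC_4, and 18 of them stood above its -0.59. Uhrf1 was also described because of its call in GSCLC_4, so this count is partly set by that choice.

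**Figure D3:**
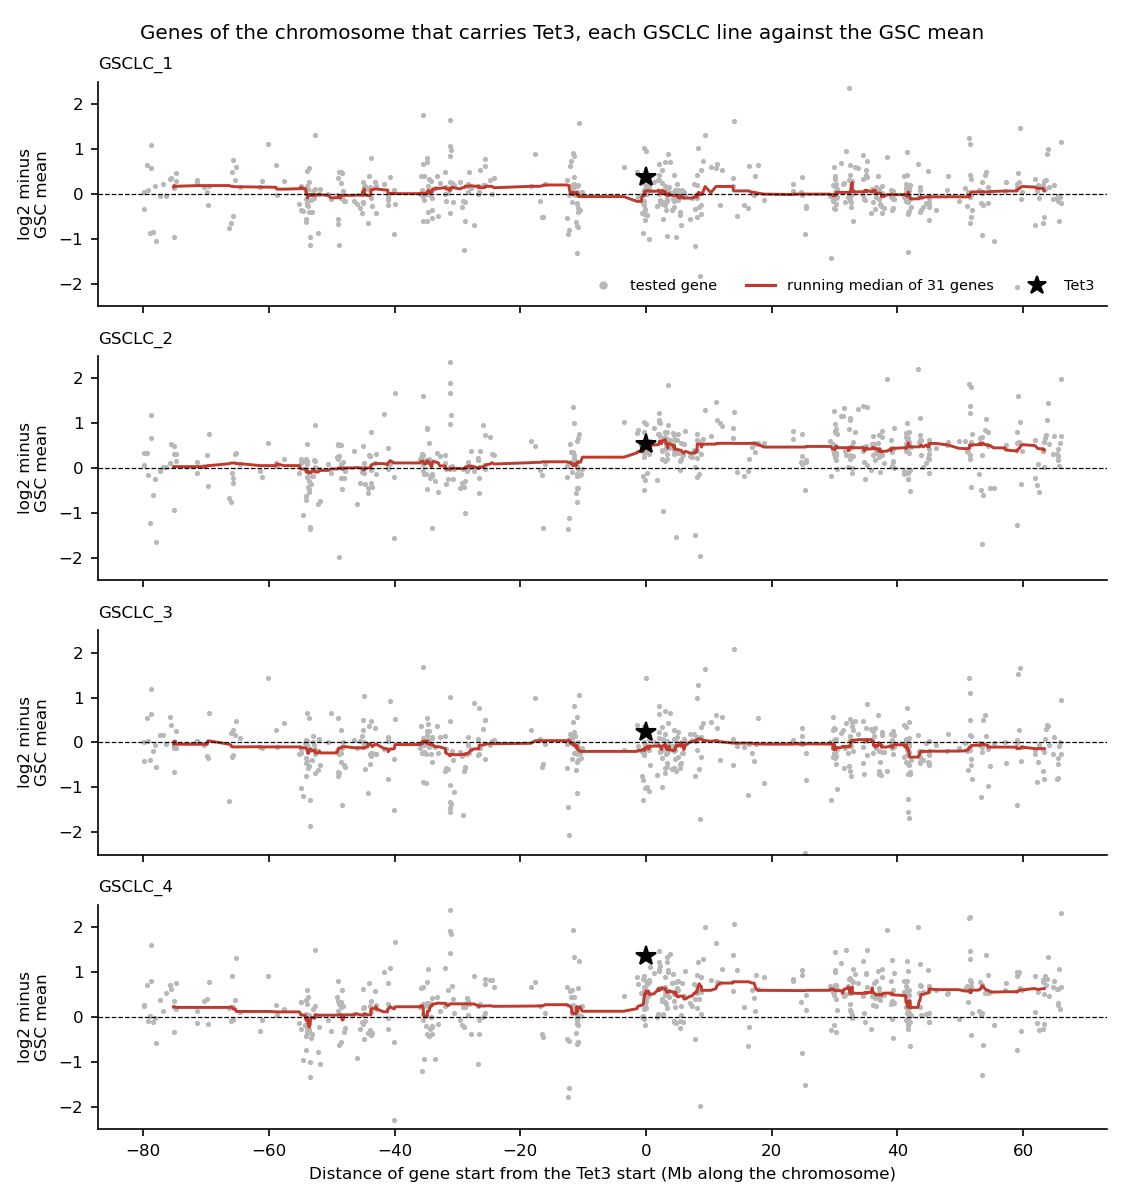
Log2(RPM + 1) differences from the GSC mean for 540 tested genes of the chromosome that carries Tet3, in 1 panel per GSCLC line, against the distance of each gene start from the Tet3 start in Mb; the red line is a running median of 31 genes and the star is Tet3 (4 genes lie outside the 2.5 log2 limits of the axis in a line). In GSCLC_2 and GSCLC_4 the running median steps up near Tet3, with medians of 0.46 and 0.56 over the genes more than 10 Mb beyond it, and in GSCLC_4 the star lies above it at 1.35.

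Between GSCLC lines of condition 2 and condition 1, 0 of 6 members were called, where 0% of all tested genes were, with 552 genes at an unadjusted p under 0.05. Dnmt3a had line means of 51.6 and 52.6 RPM in condition 2, in GSCLC_2 and GSCLC_3, against 59.7 and 70.0 RPM in condition 1, in GSCLC_1 and GSCLC_4, and a log2 difference of -0.32 ± 0.17 (95% interval -0.69 to 0.06) with adjusted p = 0.933 by limma. Tet3 had line means of 12.9 and 10.6 RPM in condition 2 and 11.4 and 23.9 RPM in condition 1, with a log2 difference of -0.48 ± 0.35 that was 0.01 without line GSCLC_4. Uhrf1 stood at 0.15 ± 0.19, Dnmt1 at 0.06 ± 0.14, Dnmt3b at -0.11 ± 0.20 and Tdg at -0.01 ± 0.23, with adjusted p from 0.934 to 0.997.

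Of 103 tested genes in 7 lists of genes that work with these enzymes or depend on methylation, 2 passed the test between GSCLC and GSC lines, or 1.94%, close to the 3.02% of all tested genes. Of the readers of methylated DNA, such as Mbd1 and Mbd2, 0 of 8 tested genes passed, with a median log2 difference of 0.04. Of the cofactors of maintenance, which include the remodeller gene Hells and the clamp gene Pcna, 0 of 11 passed, with a median of 0.02. For genes that target or shield methylation, among them Trim28, Setdb1 and Kdm1a, it was 0 of 14 with a median of 0.01. The median over all tested genes was -0.01.

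On the side of removal, 0 of 17 tested genes of demethylation and base excision repair passed, with a median of -0.08 and a range of -0.80 to 0.45. The lists of methyl donor supply and DNA replication had 0 of 14 and 0 of 23 genes called, with medians of -0.07 and 0.01. Between condition 2 and condition 1 none of the 7 lists had a called gene by limma.

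In GSCLC_4 alone, against the GSC mean, 18 of the 103 genes passed, 8 higher and 10 lower, or 17.5% where 16% of all tested genes were called. The replication list had 1 gene higher and 2 lower, the maintenance list 1 higher and 2 lower, the removal list 2 higher and 2 lower and the germline list 2 higher and 3 lower. The targeting list had 1 higher, the methyl donor list 1 higher and 1 lower, and the readers none by limma. The higher gene of the methyl donor list was Mthfd2, the neighbour of Tet3 described above. Mcm10 and Fen1, which act at replication forks, were lower in GSCLC_4 by -0.57 ± 0.13 and -0.49 ± 0.14 and the helicase subunit gene Mcm6 higher by 0.48 ± 0.14, with adjusted p = 0.00414, 0.0176 and 0.0213 by limma.

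Of the maintenance list, Lig1, the ligase of replication, and Ehmt1, a histone methyltransferase, were lower in GSCLC_4 by -0.49 ± 0.15 and -0.57 ± 0.17, and Ehmt2, the partner of Ehmt1, was higher by 0.40 ± 0.13 (adjusted p = 0.032, 0.0307 and 0.0442 by limma). Of the removal list, Ogt, the O-GlcNAc transferase that binds Tet proteins, was higher by 0.63 ± 0.18 and Hmces, listed as 8430410A17Rik, by 0.55 ± 0.13. Polb, the repair polymerase, was lower by -0.58 ± 0.17 and Idh2, the mitochondrial isocitrate dehydrogenase, by -1.34 ± 0.36, with adjusted p = 0.00714 to 0.0227 for these 4 genes by limma. Of these, Hmces lies on chromosome 6, 4.552 Mb beyond Tet3, and its difference was near the median of 0.53 over genes within 10 Mb of Tet3 in GSCLC_4. Kdm1a, a histone demethylase, was higher by 0.54 ± 0.16, and Shmt2, a mitochondrial folate enzyme, lower by -0.44 ± 0.13. The genes given for GSCLC_4 were chosen after their values were seen.

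Of 16 tested germline genes that DNA methylation is known to silence in somatic cells, 2 passed the test and both were lower in GSCLC lines, where 1.81% of all tested genes were lower and 1.21% higher, and the list median was 0.14. Dpep3, a membrane dipeptidase gene of the testis, had 1.71 and 0 RPM in GSCLC_1, 0 in both libraries of GSCLC_2, 1.70 and 4.58 RPM in GSCLC_3 and 1.5 and 0 RPM in GSCLC_4, against 12.1 and 4.95 RPM in GSC_1 and 19.7 and 24.0 RPM in GSC_2. All GSC libraries were above all GSCLC libraries. The log2 difference was -2.99 ± 0.56 with adjusted p = 0.0173 by limma. Line means were 1.19 ± 1.36 RPM in GSCLC lines and 15.2 ± 9.43 RPM in GSC lines (SD, n = 4 and 2). No GSCLC library reached the 5 RPM of the filter, so Dpep3 was tested only through its GSC libraries. Its lower value in GSCLC lines is thus partly set by the filter. With no filter the adjusted p was 0.0654 by limma.

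Tex19.1, a germ cell gene that restrains retrotransposons, had 45.9 and 61.7 RPM in GSCLC_1, 16.5 and 17.5 RPM in GSCLC_2, 48.3 and 50.7 RPM in GSCLC_3 and 43.3 and 47.2 RPM in GSCLC_4, against 147 and 81.0 RPM in GSC_1 and 106 and 126 RPM in GSC_2. The groups did not overlap, and GSCLC_2 was lowest. The log2 difference was -1.54 ± 0.36 with adjusted p = 0.0413 by limma. The call rests on both GSC lines: without GSC_1 it was -1.58 with adjusted p = 0.243 and without GSC_2 -1.5 with adjusted p = 0.332, and for Dpep3 without GSC_1 it was -3.67 with adjusted p = 0.0725. Leaving out any of GSC_1 replicate 1, GSCLC_1 replicate 1 or GSCLC_2 replicate 2 also ended the Tex19.1 call. So did leaving out GSCLC_3 replicate 1, GSCLC_3 replicate 2 or GSCLC_4 replicate 2, with adjusted p of 0.0508 to 0.078 over these libraries. Processing mattered too: the Tex19.1 call was lost with no filter (adjusted p = 0.139 by limma) and with no mean-variance trend (0.138). From replicate 2 alone it had adjusted p = 0.118 and without line GSCLC_4 0.0513.

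Sums of somatic markers were set beside these germline genes. Leydig and peritubular cell markers summed to 13 to 51.5 RPM in GSCLC libraries and 33.4 to 134 RPM in GSC libraries, and 2 of 4 tested genes were lower in GSCLC lines. These were Cyp11a1 and Hsd3b1, enzymes of steroid synthesis, at 0.127 ± 0.177 RPM and 0 in GSCLC lines and 25.4 ± 8.11 and 19.4 ± 1.23 RPM in GSC lines (SD, n = 4 and 2; adjusted p = 0.00131 for both by limma). Cyp17a1 was at 0 in all libraries. Macrophage and endothelial markers summed to 8.9 to 23.5 RPM in GSCLC libraries and 23.5 to 36.7 RPM in GSC libraries, and 1 of 4 tested genes was lower, Fcer1g, an immune receptor chain, at 0.103 ± 0.135 RPM in GSCLC lines and 11.3 ± 5.76 RPM in GSC lines (adjusted p = 0.00436). Like Dpep3, the genes Cyp11a1, Hsd3b1 and Fcer1g reached the level of the filter in GSC libraries only. The counts of lower genes in these lists are thus partly set by the filter. Some other markers of these lists, below the filter, went the other way. Insl3 averaged 3.27 RPM in GSCLC lines and 1.38 RPM in GSC lines, and Ptprc 2.48 and 1.53 RPM. Myh11 and Cdh5, both under 1 RPM on average, were also higher in GSCLC lines. Of 9 tested fibroblast markers, whose sums are given above, 1 was lower in GSCLC lines. This was Sparc, at 58.3 ± 11.5 RPM in GSCLC lines and 130 ± 63.7 RPM in GSC lines (SD, n = 4 and 2; adjusted p = 0.0463 by limma). The log2 differences of the 9 ran from -1.18 to -0.01 with a median of -0.62, and between GSC_2 and GSC_1 their median was 1.26. The part of somatic cells in the Dpep3 and Tex19.1 values was not tested.

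**Figure D4:**
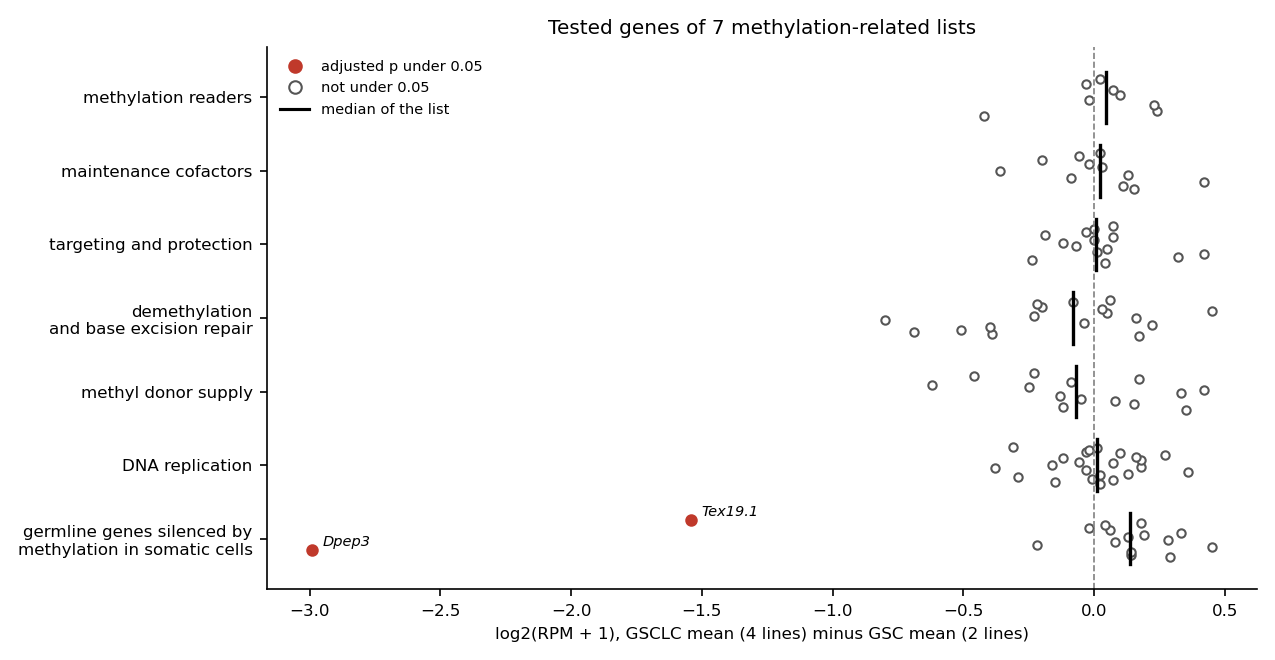
Log2(RPM + 1) differences, GSCLC minus GSC line means, of the tested genes of 7 lists; each circle is a gene, red where it passed the threshold, and black bars are list medians. The medians lie between -0.08 and 0.14, and the called genes are Tex19.1 at -1.54 and Dpep3 at -2.99.

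For each tested member, the genes most like it over the 12 libraries were found by Pearson's r of log2(RPM + 1), among 7388 tested genes with a mean of at least 20 RPM. The libraries include 2 cultures of each line, so the points are not independent, and the values are a description. Ung, which removes uracil from DNA and averaged 107 RPM, was the most like Uhrf1 (r = 0.90), followed by Gm19631 and Pygo2 (both 0.87). Snd1 was the most like Dnmt1 (0.85), with Agfg2 and Tbc1d22b at 0.84. Tnrc6a, a protein of microRNA silencing, led for Dnmt3a (0.90, then 1810031K17Rik at 0.89 and Abhd2 at 0.88), and Hook1 for Dnmt3b (0.89, then Pdzd8 at 0.87 and Kptn at 0.86). Tmem5 was the most like Tet3 (0.90), with Ninl and Foxr1 at 0.89, and Homez the most like Tdg (0.95), with Tbc1d19 at 0.90 and Vps33a at 0.87.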

How the data were processed

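Processed values came from 12 libraries of 6 lines. The authors deposited 1 table of RPM; per the submitters' processing notes cutadapt 1.3, TopHat 1.4.1, Cufflinks 2.2.0 and mm10 (GRCm38) were used, in roles not given in the sources used here, nor is the use of strand in counting. Between 99.7% and 99.8% of values were whole multiples, within 0.1, of a step of 0.215 to 0.33 RPM; the implied reads served only to describe precision. RPM are not counts, so log2(RPM + 1) was tested with limma 3.58.1 in R 4.3.3, with a mean-variance trend, two-sided, at an adjusted p of 0.05. Groups were compared on means of the 2 replicates of a line, conditions in a fit with 3 groups, and single lines in a fit of 12 libraries. P-values of the single-line fit measure the spread between cultures. Chi-square per gene between replicates was 3.98 to 8.53, so none was a duplicate. Simulated data had 100 genes each changed by 1 and 2 on the log2 scale among 11669. In these the fit of GSCLC against GSC lines called 62% and 97%. The simulated spread between lines was that of all 6 line means, GSCLC and GSC together. The simulated spread between replicates was set below that of the data, so the shares describe the simulated data only. The changed genes were drawn from those with a mean of at least 20 RPM, so these shares do not cover Tet3, at 14.7 and 8.66 RPM in GSCLC and GSC lines.

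Members and lists were chosen with earlier results of these data known. Named genes are the 9 members, list genes called between groups (at most 6 a list), the 3 most like each tested member and neighbours where a region is described; list genes called in GSCLC_4 alone were added afterwards. The list gene Hmces was read as 8430410A17Rik, and 1 list name, Gm14490, had no row matched. Genes on the chromosome were placed by RefSeq starts, found for 11411 of 11788 tested genes. Alternatives were other pseudocounts (0.25 and 5), no filter or a stricter one (10 RPM in 4 libraries), other scalings, no trend, each library or line left out, single replicates and the replicate number as a block.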

Additional observations from a re-analysis of the deposited data

Results flagged for a closer look

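Within groups, 3 values stood apart from the rest by Dixon's test, among 27 groups of libraries or line means tested, and chance flags about 1 group in 20. Uhrf1 was lowest in GSC_2 replicate 1, at 190 RPM, where the other GSC libraries had 250 to 260 RPM. Dnmt3a was lowest in the same library, at 60.6 RPM, where the others had 63.3 to 63.7 RPM. Its 95% counting interval there, 53.2 to 68.6 RPM, covers the others. Tet2 was highest in GSC_1 replicate 2, at 0.215 RPM or 1 read, where the other GSC libraries had none. Any single value above 0 among values of 0 is flagged by this test, so the Tet2 flag carries no information.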

How the results depend on the processing

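Over 1288 recomputed values of single genes, 1214 kept their direction and their side of the threshold, 30 crossed the threshold and 44 reversed a difference that was not past it; the cause was not tested. The 6 tested members gave 0 calls in 174 combinations of member and alternative for GSCLC against GSC lines (lowest adjusted p 0.201) and 0 in 174 for condition 2 against condition 1 (lowest 0.497). Tet3 in GSCLC_4 stayed past the threshold in 19 of 20 alternatives and Uhrf1 in 16 of 20; Uhrf1 lost the call with no filter (adjusted p = 0.0716), with no mean-variance trend (0.0939) and without 2 of the libraries in turn. For Dnmt3l, Tet1 and Tet2 the direction held in every one of 15 alternatives each. The call of Dpep3 was lost in 2 of 26 alternatives and that of Tex19.1 in 12 of 29; without GSC_2, from replicate 2 alone and under the stricter filter Dpep3 was not among the tested genes. The alternatives for single lines, for GSC_2 against GSC_1, for Dnmt3l, Tet1 and Tet2 and for Dpep3 and Tex19.1 were chosen after seeing the data. Depth limits Dnmt3l, Tet1 and Tet2, at 1 to 16 reads where seen, most.

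Counts of called genes moved with the settings. With no filter 142 genes were called for GSCLC against GSC lines (356 as reported), 349, 811 and 1095 in GSCLC_1, GSCLC_2 and GSCLC_3 (818, 1383 and 1680), 0 between GSC_2 and GSC_1 (6), 1181 among 6 lines (2362) and 458 among 4 lines (1077). With no trend they were 531 in GSCLC_1, 1 between GSC_2 and GSC_1, 1334 among 6 lines and 461 among 4 lines. For GSCLC against GSC lines the count was 41 without line GSC_1, 13 without GSC_2, 211 without GSCLC_1, 209 without GSCLC_2, 114 from replicate 1 alone and 178 from replicate 2 alone. For condition 2 against condition 1 it was 1 without line GSCLC_1, 11 without GSCLC_2, 1 without GSCLC_3 and 1 from replicate 2 alone. Leaving out single libraries gave 199 to 403 genes for GSCLC against GSC lines, 0 to 9 for GSC_2 against GSC_1, 710 to 1162 among 4 lines, and 166 to 909, 416 to 1478, 770 to 1835 and 737 to 1951 in GSCLC_1, GSCLC_2, GSCLC_3 and GSCLC_4.

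Members called among 6 lines were 0 with no filter, 2 with upper quartile rescaling, 0 with no trend and 0 to 2 with single libraries left out; among 4 lines 0 to 1. Those in GSCLC_4 were 1 with no filter, 1 with no trend and 1 to 2 with libraries left out, and in GSCLC_3 0 to 1.

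Replicate numbers did not pair samples, since the correlation of same-numbered deviations over 15 pairs of lines ran from -0.12 to 0.11. With the replicate block 2435 genes were called among 6 lines and 1130 among 4, with Tet3 at adjusted p = 0.0307 among 6 lines, and Tet3 and Uhrf1 in GSCLC_4 at 0.00316 and 0.0156. In a fit of 12 libraries with a correlation within lines, 592 genes were called for GSCLC against GSC lines with the replicate block and 645 without it.

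The differences that changed sign were small. For condition 2 against condition 1, without line GSCLC_2, Dnmt1 was -0.10, Tdg 0.09 and Uhrf1 -0.03; without GSCLC_3 Dnmt3b was 0.00; without GSCLC_4 Dnmt3b was 0.03, Tdg 0.13, Tet3 0.01 and Uhrf1 -0.09. From replicate 1 alone Dnmt3b was 0.07 and Tdg 0.03, from replicate 2 alone Dnmt1 was -0.13 and Uhrf1 -0.16, and Tdg was 0.08 with quantile normalisation and 0.05 with upper quartile rescaling. With single libraries left out, Dnmt1 ran from -0.07 to 0.19, Dnmt3b from -0.23 to 0.01 and Tdg from -0.08 to 0.07. For GSCLC against GSC lines Dnmt3b was 0.12 without line GSC_1, 0.01 without GSCLC_3 and -0.15 to 0.06 without single libraries.

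Leaving out single libraries, GSC_2 against GSC_1 gave -0.27 to 0.04 for Dnmt1, 0.00 to 0.43 for Tet3 and -0.41 to 0.03 for Uhrf1. Against the GSC mean GSCLC_1 gave -0.21 to 0.06 for Dnmt3a, -0.03 to 0.15 for Tdg and -0.25 to 0.02 for Uhrf1. GSCLC_2 gave -0.04 to 0.11 for Dnmt1, -0.10 to 0.12 for Dnmt3b, -0.06 to 0.25 for Tdg and -0.13 to 0.09 for Uhrf1. GSCLC_3 gave -0.10 to 0.57 for Tet3, and GSCLC_4 -0.08 to 0.39 for Dnmt3b.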
